A study of Mus musculus with 51 samples.

Results

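Granulocyte-macrophage progenitors (GMP) from mice that carry the Mll-AF9 knock-in allele were compared with GMP from wild-type mice. The comparison used 9 samples, 4 titled Mll-AF9 GMP (replicates 1 to 4) and 5 titled wild-type GMP (replicates 1 to 5), chosen by their titles out of 51 arrays, or 43 replicates once repeat runs were averaged. The other replicates were common myeloid progenitors (CMP, 5 wild type and 4 Mll-AF9), common lymphoid progenitors (CLP, 8 and 7) and haematopoietic stem cells (HSC, 5 and 5), and they serve here only as points of reference. All cells were sorted by flow cytometry out of whole bone marrow, lysed on collection, and their RNA was amplified by a 2-cycle labelling reaction before hybridisation to 1 Affymetrix array per sample. The stated question was which genes are expressed at another level in Mll-AF9 cells than in wild-type cells of the same kind. The sources used here do not give the age, strain or zygosity of the mice, the markers of the sort, or whether replicates came from separate mice. The p-values therefore set a genotype difference against the spread among these samples only. That spread may not be the spread among mice, and part of it may be technical.

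GMP are the bone marrow progenitors that give rise to neutrophils and to monocytes and macrophages, and they are known for the enzymes of the primary granules. MLL, encoded by Kmt2a in the mouse, is a histone methyltransferase that maintains the transcription of Hox genes. In the Mll-AF9 allele its amino-terminal, chromatin-binding part is fused to the carboxy-terminal part of Af9 (Mllt3), a component of complexes that promote transcript elongation. Knock-in mice express the fusion from the mouse Mll promoter and develop myeloid leukaemia, and the fusion is best known for sustaining Hoxa9, Meis1 and other genes of stem and progenitor cells in cells that would otherwise shut them off.

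Values are log2 of the deposited RMA intensities, and differences on that scale subtract wild type from Mll-AF9 and carry limma's standard error (SE). A gene was called at a limma adjusted p below 0.05 (Benjamini-Hochberg over 18193 genes), and "rose" and "fell" are used of called genes only. Background was set at 4.62. If the mean of the dimmer group was under it, that group's replicates were raised to 4.62 and the fold is given as a lower bound. RNA was measured in bulk, so a higher share of cells that express a gene cannot be told apart from more RNA of that gene per cell.

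The label of the cells was checked against markers of the compartment. All 15 measured primary granule genes lay above background, and none was called. Mpo, the myeloperoxidase of the primary granule, averaged 13.70 ± 0.13 (SD, n = 5) for wild type, and 13.66 ± 0.10 (SD, n = 4) for Mll-AF9 GMP, against 10.86 ± 0.45 (SD, n = 5) in wild-type CMP. The Fc receptor Fcgr3, which is used to gate GMP, was at 9.25 in wild type and 9.38 in Mll-AF9 GMP, against 4.70 in wild-type CMP. Klf1, an erythroid transcription factor, was at 5.75 and 5.51 in the GMP groups and at 11.38 in wild-type CMP, while Il7r, the interleukin-7 receptor of lymphoid progenitors, was at 3.60 and 3.80, below background.

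Some samples stood apart from the others before any genotype comparison. Agreement was measured as the standard deviation over genes of the difference between 2 replicates, divided by the square root of 2. It was 0.20 to 0.27 among wild type replicates 2 to 5 and 0.21 to 0.29 among the Mll-AF9 replicates. In pairs of wild-type samples it was higher, 0.39 to 0.47, when 1 of them was wild type replicate 1. That replicate also had the largest 3'-minus-5' difference of the control transcripts, a sign of RNA shortening, at 4.70 against 2.59 to 4.14 in the other wild-type and 2.74 to 3.18 in the Mll-AF9 replicates. Wild type replicates 1 to 3 had Y-linked genes at a mean of 6.17 to 6.47 and Xist at 3.82 to 4.42. Wild type replicates 4 and 5 and all 4 Mll-AF9 replicates had Y-linked genes at 2.40 to 2.71 and Xist at 10.57 to 11.27. The labels give no sex. By these genes, sex was partly confounded with genotype, as every sample with high Y-linked genes was wild type. Between the genotypes, neither the 3'-minus-5' difference (exact permutation p = 0.413, 2-sided, 126 splits) nor the Y-linked mean (exact permutation p = 0.222) passed a test at 0.05. The Xist difference of 4.37 did not pass the limma test (adjusted p = 0.25). Samples with high Y-linked genes were few and all wild type. They also had the highest 3'-minus-5' differences (4.70, 4.14 and 3.24 in replicates 1 to 3, against at most 3.18 in the others), so both measures moved together. The tests of the 3'-minus-5' difference, the Y-linked mean and Xist therefore had little power and do not show that the genotypes were balanced. Counts are therefore also given without wild type replicate 1, and against wild type replicates 4 and 5 alone, which share the low Y-linked level of the Mll-AF9 samples.

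Mll-AF9 GMP had 31 genes at a higher level (0.17% of the genes tested) and 18 at a lower level (0.0989%), together 0.269%. In all 49 of these the 2 groups of samples did not overlap, which held for 793 of all genes (4.36%; 2.22% on the higher and 2.14% on the lower side). The largest fitted increases belonged to Mecom, Tmem178, Bpifc, Slc15a2, Myl10 and Skida1, of which only Tmem178 lay above background in wild type, so their order by size is not settled: the lower bounds for Myl10 (2.27-fold) and Skida1 (1.32-fold) were under the folds of Fbp1 (3.60) and Hoxa9 (3.46). The largest fitted decreases belonged to Ptger3, Basp1, Tmem98 and Klk8. With the dimmer group raised to background where it lay below, 21 of the higher and 8 of the lower genes exceeded 2-fold. In 47 of the 49 the brighter group lay above background, the exceptions being Cdh1 and Fam135a. The dimmer group lay below background for 12 higher and 6 lower genes.

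**Figure D1:**
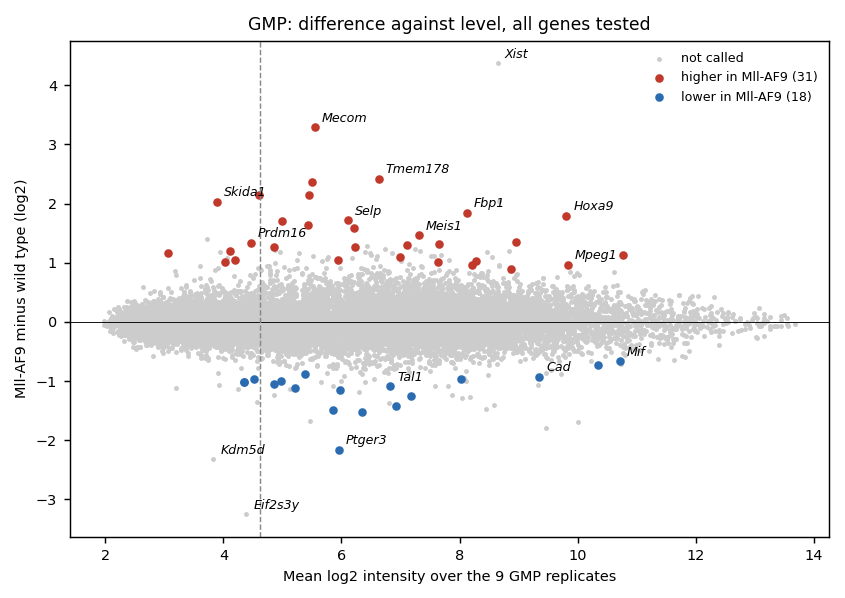
Difference between the genotypes (Mll-AF9 minus wild type, log2, y axis) against the mean log2 intensity over the 9 GMP replicates (x axis) for 18193 genes, with called genes in red (31 higher) and blue (18 lower), other genes in grey, and the background level of 4.62 as a dashed line. Mecom lies highest among the called genes at 3.29 and Ptger3 lowest at -2.16, and the sex-linked genes Xist, Eif2s3y and Kdm5d lie far from 0 without passing the test.

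The number of calls moved with the samples. Without wild type replicate 1 there were 92 higher (0.506%) and 51 lower (0.28%) genes, together 0.786%, among them all 49 of the full comparison. Against wild type replicates 4 and 5 alone there were 84 and 57, with 39 of the 49 among them. With the Y-linked level as a covariate there were 11 higher and 10 lower genes. Of the 49, 11 passed there, namely Mecom, Tmem178, Slc15a2, Myl10, Skida1, Tctex1d1, Meis1, Chaserr, Cdh1, Ptger3 and Tmem98, and the other 38 kept their sign. Leaving out another single replicate gave 16 to 35 higher and 4 to 17 lower genes, the fewest higher without Mll-AF9 replicate 3 and the fewest lower without Mll-AF9 replicate 1 or 3. Between 20 (without Mll-AF9 replicate 3) and 42 (without wild type replicate 2) of the 49 were called in these. No called gene changed sign under any of the 22 alternatives. Mecom, Tmem178, Myl10, Skida1, Meis1, Chaserr, Ptger3 and Tmem98 were called in all of those in which they were tested. Most seldom called were Fbp1 (5 of 22), Fzd6 (6 of 22), Pde5a (6 of 21), Fam135a (7 of 21) and Mif (8 of 22). Shmt2, Sox12 and Tfpi (9 of 22 each) and Zfp521 (9 of 21) came next. A gene whose lost calls are not listed below is not thereby stable.

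Promoters are shown for context for Mecom, Tmem178 and Ptger3, 3 genes with large differences, and for Hoxa9, the best-known MLL target among the called genes. Each run gives the 250 bases before a start of transcription, 5' to 3' on the strand of the gene, with CpG dinucleotides, the sites of DNA methylation and the hallmark of the CpG-island promoters that MLL's CXXC domain binds when unmethylated, in capitals. Sequences and starts are RefSeq's on GRCm38.p6. Mecom has 2 such starts in the table, at chr3:30509760-30510009 (minus strand, 14 CpG) and, further along the gene, at chr3:30013205-30013454 (minus strand, 8 CpG). The windows of Hoxa9 (chr6:52227371-52227620, minus strand, 3 CpG), Tmem178 (chr17:80944382-80944631, plus strand, 29 CpG) and Ptger3 (chr3:157566626-157566875, plus strand, 21 CpG) follow.
Mecom, upstream start: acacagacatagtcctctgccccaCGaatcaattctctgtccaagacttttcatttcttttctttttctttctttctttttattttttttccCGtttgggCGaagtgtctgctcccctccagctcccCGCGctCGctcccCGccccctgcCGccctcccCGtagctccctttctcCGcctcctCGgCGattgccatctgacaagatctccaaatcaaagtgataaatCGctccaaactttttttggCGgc
Mecom, downstream start: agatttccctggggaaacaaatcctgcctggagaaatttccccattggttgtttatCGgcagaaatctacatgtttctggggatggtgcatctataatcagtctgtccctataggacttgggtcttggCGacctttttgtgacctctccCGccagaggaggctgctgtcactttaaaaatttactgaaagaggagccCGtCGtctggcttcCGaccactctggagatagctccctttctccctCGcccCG
Hoxa9: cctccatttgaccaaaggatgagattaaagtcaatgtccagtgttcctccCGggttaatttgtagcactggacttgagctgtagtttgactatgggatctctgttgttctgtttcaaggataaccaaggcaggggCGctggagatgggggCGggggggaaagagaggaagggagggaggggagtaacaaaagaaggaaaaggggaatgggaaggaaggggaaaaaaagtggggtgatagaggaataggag
Tmem178: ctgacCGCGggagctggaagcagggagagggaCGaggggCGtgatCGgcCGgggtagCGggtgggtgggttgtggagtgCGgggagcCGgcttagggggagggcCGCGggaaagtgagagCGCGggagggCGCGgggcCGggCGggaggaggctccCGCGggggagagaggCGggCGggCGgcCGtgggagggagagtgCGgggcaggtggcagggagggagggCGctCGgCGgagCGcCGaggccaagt
Ptger3: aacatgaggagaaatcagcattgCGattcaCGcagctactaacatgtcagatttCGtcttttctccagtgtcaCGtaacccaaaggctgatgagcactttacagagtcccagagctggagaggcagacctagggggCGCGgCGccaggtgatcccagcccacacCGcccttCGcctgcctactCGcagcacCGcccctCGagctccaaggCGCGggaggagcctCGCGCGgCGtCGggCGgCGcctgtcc
These windows differ widely in CpG content although 4 of the 5 belong to genes that rose. Among the genes tested, 14452 had a promoter in the table, with a median of 14 CpG in the richest window of a gene, and 28.3% had 6 or fewer. The 24 higher genes with a promoter had a median of 10, and 11 of them (45.8%) had 6 or fewer. The 14 lower genes with a promoter had a median of 17.5, and 2 (14.3%) had 6 or fewer. A CpG count is a property of the letters only, and no methylation was measured here.

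Of the HoxA cluster, the homeobox genes best known as MLL targets, 1 of 9 measured genes rose and none fell. The median difference was 0.09, beside -0.02 over all genes. The shares over all genes, 0.17% higher and 0.0989% lower, apply to this and to the later list counts. Hoxa9 stood at 8.16, 9.26, 9.49, 8.96 and 9.20 in wild type replicates 1 to 5 and at 10.38, 10.95, 10.79 and 11.10 in Mll-AF9 replicates 1 to 4. Every Mll-AF9 sample lay above every wild-type sample, and wild type replicate 1 was the lowest. Hoxa9 rose by 1.79 ± 0.24 (SE), or 3.46-fold, with a limma adjusted p of 0.00242. A second Hoxa9 probe set, at 6.26 and 6.16, had a difference of -0.10 (adjusted p = 0.909), and the mean of both was 0.84 higher (adjusted p = 0.068).

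Hoxa5 gave the opposite picture between its probe sets. The brighter one, which stands for the gene here, was at 7.05 in wild type and 7.44 in Mll-AF9 (difference 0.40, adjusted p = 0.55). The other was at 3.96, 4.66, 4.81, 4.33 and 4.23 in wild type and at 6.51, 7.17, 6.79 and 6.37 in Mll-AF9, with no overlap. Its difference of 2.31 ± 0.21 (SE) passed when all probe sets were tested together (adjusted p = 0.000295). Hoxa5 is therefore called or not by the probe set chosen. Hoxa2 had a difference of 0.74 (adjusted p = 0.056), below background in both groups, and 0.74 without wild type replicate 1, where it passed (adjusted p = 0.041). Hoxa10 had 0.39, Hoxa7 0.09, Hoxa13 0.09, Hoxa4 0.07, Hoxa3 -0.15 and Hoxa11 -0.15, and none of these passed. The HoxB cluster, whose middle genes mark stem cells, had no call among 9 measured genes, and 7 of the 9 were at or below background in every sample. Hoxb4, a stem cell regulator, was at 6.05 and 6.10.

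Of the 8 measured cofactors that bind DNA with Hox proteins, 1 rose and none fell (0.17% and 0.0989% of all genes did), with a median of 0.08. Meis1, a partner of Hoxa9, was at 6.84, 6.65, 6.44, 6.83 and 6.55 in wild type and at 7.90, 8.07, 8.03 and 8.49 in Mll-AF9. The groups were more than 1 log2 unit apart at their nearest samples, and Meis1 rose by 1.46 ± 0.18 (SE), or 2.76-fold (adjusted p = 0.00181). A further probe set for Meis1 was higher by 1.56 (adjusted p = 0.024 with all probe sets tested), and the dimmest one had a difference of -0.07. Pbx3, the other well-known cofactor of Hoxa9, was at 5.40 in wild type and 4.17 in Mll-AF9, and the difference of -1.23 missed the threshold (adjusted p = 0.053). Without wild type replicate 1 it was -1.07 and passed (adjusted p = 0.027). The remaining cofactors, Pknox1 (0.46), Pknox2 (0.14), Pbx4 (0.10), Meis3 (0.06), Pbx2 (0.03) and Meis2 (-0.13), did not pass.

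Among 23 measured genes outside the Hox clusters that are commonly named as MLL-fusion targets, Mecom, Skida1, Meis1 and Prdm16 rose and Zfp521 fell. The median difference was 0.31, and 0.17% of all genes rose and 0.0989% fell. That list was drawn up with earlier results of these data known, so its count is no independent evidence of a direction. Mecom encodes Evi1, a zinc-finger transcription factor needed by stem cells for self-renewal. It was at 4.61, 3.25, 3.76, 4.42 and 4.39 in wild type, at or below background in each replicate, and at 6.72, 7.86, 7.40 and 7.52 in Mll-AF9. Mecom rose by 3.29 ± 0.28 (SE, adjusted p = 0.000111), which is at least 6.76-fold above background. It was the gene with the lowest p in the comparison. The 2 other Mecom probe sets were below background in both groups.

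Prdm16 encodes a transcription factor related to Evi1 and also serves stem cell maintenance. It was at 4.21, 3.57, 3.63, 4.02 and 3.91 in wild type and at 5.53, 5.11, 4.93 and 5.26 in Mll-AF9, so all wild-type samples were below background and all Mll-AF9 samples just above it. It rose by 1.34 ± 0.17 (SE), at least 1.50-fold (adjusted p = 0.00212). Other Prdm16 probe sets above background had differences of 0.80 (adjusted p = 0.284) and -0.07, and the mean over its probe sets was 0.57 higher (adjusted p = 0.179). Skida1, a little-studied gene of the SKI and DACH domain family, was at 2.68, 2.77, 3.54, 3.18 and 2.76 in wild type and at 4.34, 4.63, 5.48 and 5.64 in Mll-AF9. Mll-AF9 replicates 1 and 2 lay near background and replicates 3 and 4 above it. The gene rose by 2.03 ± 0.26 (SE, adjusted p = 0.00199), which is at least 1.32-fold once wild type is raised to background. Zfp521, a zinc-finger factor of early progenitors, fell by 1.02 (adjusted p = 0.0218) on a probe set below background in Mll-AF9, at least 1.13-fold. That call held in 9 of 21 alternatives. Another probe set of Zfp521 was above background at 5.73 and 5.69, a difference of -0.04 (adjusted p = 0.98 with all probe sets tested).

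Other members of that list did not pass. Hmga2, an architectural chromatin protein, was at 5.63 in wild type and 4.50 in Mll-AF9, with a difference of -1.13 (adjusted p = 0.13), and it was called lower without wild type replicate 1 (-0.84). Cpeb2 had 0.78, Jmjd1c 0.78, Gfi1 0.69, Sox4 0.50, Cdk6 0.42, Mef2c 0.25, Bcl2 0.23, Myb 0.15 and Flt3 -0.67. Kmt2a itself was at 6.75 and 6.30 (difference -0.45, adjusted p = 0.44) and Mllt3 at 5.13 and 4.85. The positions of these probe sets relative to the fusion point are not used here, so neither probe set checks the genotype labels. None of 30 measured genes of the Mll and fusion-partner complexes was called, and their median difference was -0.02. Those with the lowest p were Mllt10 (0.95), Aff4 (0.60) and Mllt1 (-0.47).

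**Figure D2:**
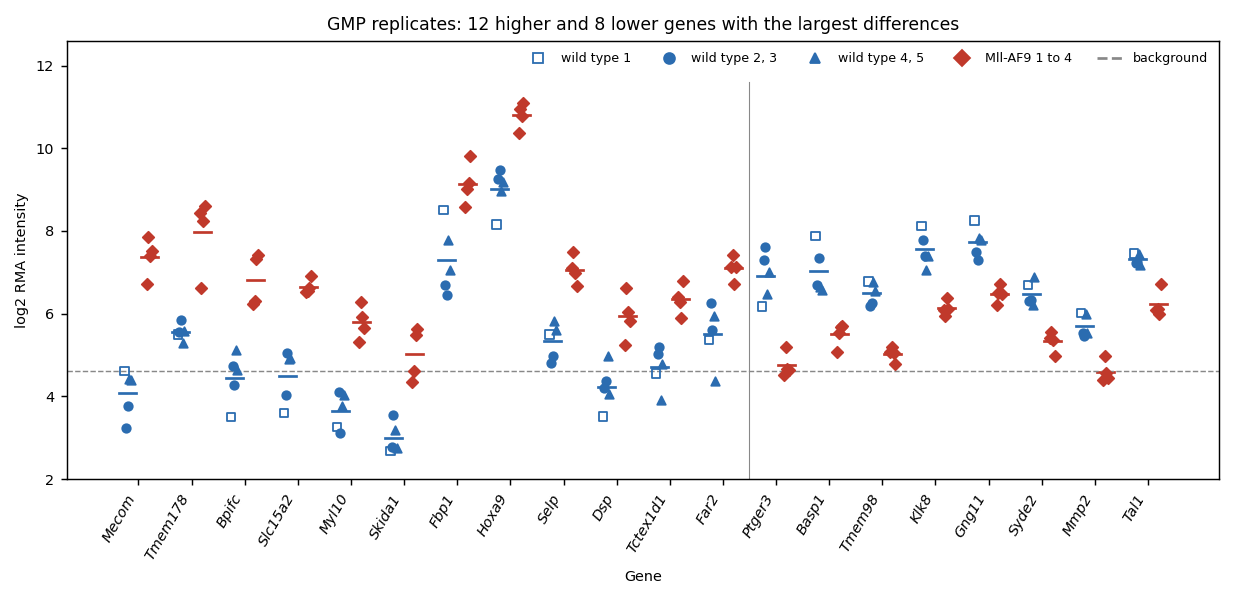
Log2 RMA intensity (y axis) of each GMP replicate for 20 called genes, the 12 furthest up and the 8 furthest down (x axis), with wild-type samples in blue (open square for replicate 1, circles for 2 and 3, triangles for 4 and 5), Mll-AF9 samples in red, group means as bars and background as a dashed line. The groups do not overlap for any of the 20 genes, although wild type replicate 1 of Fbp1 (8.51) lies just under Mll-AF9 replicate 1 (8.57).

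The next largest increases were in genes of varied function. Tmem178, a membrane protein of the endoplasmic reticulum that limits calcium release in osteoclasts, was at 5.50, 5.55, 5.84, 5.28 and 5.58 in wild type and at 8.44, 6.63, 8.24 and 8.59 in Mll-AF9. Mll-AF9 replicate 2 was the lowest of its group and still above all wild-type samples. Tmem178 rose by 2.42 ± 0.32 (SE), or 5.36-fold (adjusted p = 0.00242). Bpifc, of the family of lipid-binding bactericidal proteins, was at 3.50, 4.73, 4.27, 5.13 and 4.64 in wild type and at 6.24, 6.30, 7.33 and 7.42 in Mll-AF9. It rose by 2.37 ± 0.32 (SE), at least 4.21-fold (adjusted p = 0.00262).

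Slc15a2, a proton-coupled peptide transporter, was at 3.60, 4.04, 5.04, 4.89 and 4.93 in wild type and at 6.53, 6.54, 6.63 and 6.91 in Mll-AF9. The Mll-AF9 samples lay close together and the wild-type samples were spread, with replicates 1 and 2 lowest. It rose by 2.15 ± 0.27 (SE), at least 3.56-fold (adjusted p = 0.00181). Another Slc15a2 probe set was at 4.97 and 4.92 (difference -0.05, adjusted p = 0.97 with all probe sets tested). Myl10, a myosin regulatory light chain, was at 3.26, 4.10, 3.10, 3.77 and 4.03 in wild type, all below background, and at 5.32, 6.28, 5.92 and 5.67 in Mll-AF9. It rose by 2.15 ± 0.23 (SE), at least 2.27-fold (adjusted p = 0.00142). The dynein light chain relative Tctex1d1 was at 4.56, 5.03, 5.21, 3.92 and 4.79 in wild type and at 6.40, 6.29, 5.90 and 6.80 in Mll-AF9, and it rose by 1.64 ± 0.25 (SE, adjusted p = 0.00821). Far2, a reductase that makes fatty alcohols, was at 5.36, 6.25, 5.61, 5.94 and 4.36 in wild type and at 7.14, 7.41, 6.71 and 7.13 in Mll-AF9. Far2 rose by 1.59 ± 0.30 (SE, adjusted p = 0.0376), and its other probe set was higher by 1.68 (adjusted p = 0.00937 with all probe sets tested). The Far2 call held in 12 of 22 alternatives.

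Of 37 measured selectin, integrin and other adhesion genes, 3 rose and none fell (0.17% and 0.0989% of all genes did), with a median difference of 0.00, and 1 of the 3, Cdh1, was below background. Selp, the P-selectin that platelets and endothelium use to hold leukocytes, was at 5.50, 4.82, 4.99, 5.82 and 5.61 in wild type and at 7.11, 7.48, 6.98 and 6.68 in Mll-AF9. It rose by 1.72 ± 0.23 (SE, adjusted p = 0.00252), while 2 dimmer Selp probe sets had differences of 0.60 and 0.58 that did not pass. Dsp, the desmoplakin of desmosomes, was at 3.51, 4.20, 4.37, 4.97 and 4.06 in wild type and at 5.26, 6.62, 6.04 and 5.83 in Mll-AF9. Wild type replicate 4 was the nearest to the Mll-AF9 samples. Dsp rose by 1.71 ± 0.28 (SE), at least 2.37-fold (adjusted p = 0.0144), and a further probe set for Dsp was higher by 1.27 (adjusted p = 0.034 with all probe sets tested). Against wild type replicates 4 and 5 alone the Dsp difference was 1.42 and did not pass (adjusted p = 0.071), nor did it without wild type replicate 5 or Mll-AF9 replicate 2, 3 or 4. Cdh1, E-cadherin, passed with 1.17 (adjusted p = 0.00181) but stayed below background in both groups.

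Genes of prostaglandin signalling moved in both directions. Ptger3, the EP3 receptor for prostaglandin E2, had the largest decrease of the comparison. It was at 6.17, 7.29, 7.62, 6.48 and 7.01 in wild type and at 4.52, 5.19, 4.67 and 4.63 in Mll-AF9, where 3 of the 4 samples were within 0.1 of background. Ptger3 fell by 2.16 ± 0.26 (SE), or 4.47-fold (adjusted p = 0.00181). Ptgs2, the inducible cyclooxygenase that starts prostaglandin synthesis, rose by 1.04 (adjusted p = 0.0144), from 3.73 below background to 4.77 just above it, at least 1.11-fold, and did not pass without wild type replicate 5 or Mll-AF9 replicate 3. Of 22 measured receptors and synthases these were the only calls (0.17% of all genes rose and 0.0989% fell), and the median difference was -0.09. The other prostaglandin E2 receptors were not called. Ptger4 was at 7.57 and 7.46, Ptger2 at 5.64 and 5.93, and Ptger1 at 5.11 and 5.18. Hpgd, which degrades prostaglandins, had a difference of 1.39 that did not pass (adjusted p = 0.37).

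The other large decreases were spread over many functions. Basp1, a membrane-attached signalling protein, was at 7.87, 6.69, 7.35, 6.65 and 6.58 in wild type and at 5.08, 5.53, 5.68 and 5.71 in Mll-AF9. It fell by 1.53 ± 0.26 (SE, adjusted p = 0.0178), and wild type replicates 1 and 3 were its highest samples. The call was lost without any single Mll-AF9 replicate (-1.60 to -1.39). Tmem98, a membrane protein, was at 6.78, 6.19, 6.27, 6.76 and 6.56 in wild type and at 5.06, 5.20, 5.04 and 4.79 in Mll-AF9, and fell by 1.49 ± 0.18 (SE, adjusted p = 0.00181). Klk8, a secreted serine protease, was at 8.13, 7.79, 7.39, 7.06 and 7.40 in wild type and at 6.09, 5.94, 6.37 and 6.12 in Mll-AF9. It fell by 1.42 ± 0.21 (SE, adjusted p = 0.00815), less far against the low-Y replicates 4 and 5 (-1.10) than against replicates 1 to 3 (-1.64).

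Syde2, a GTPase-activating protein, was at 6.69, 6.32, 6.33, 6.21 and 6.89 in wild type and at 5.41, 5.56, 5.37 and 4.97 in Mll-AF9, and fell by 1.16 ± 0.19 (SE, adjusted p = 0.0144). Mmp2, a gelatinase of the extracellular matrix made mainly by stromal cells, was at 6.01, 5.52, 5.47, 5.99 and 5.54 in wild type and at 4.39, 4.97, 4.56 and 4.45 in Mll-AF9. It fell by 1.12 ± 0.18 (SE), at least 2.00-fold (adjusted p = 0.0144). It was the only one of 22 stroma and endothelium genes called. The summed level of that list was 9.46 to 10.10 in wild type, highest in replicate 1, and 9.22 to 9.48 in Mll-AF9, 10 of the 22 genes were at or below background in every sample, and the part of such cells in the Mmp2 difference was not tested. Further genes that fell were the coagulation inhibitor Tfpi (-0.97) and the transcription factor Sox12 (-0.88), each called in 9 of 22 alternatives. The Wnt receptor Fzd6 (at least 1.57-fold), the LIM protein Fhl1 (at least 1.13-fold), the lipid acyltransferase Lpcat2 (at least 1.72-fold) and the cyclic GMP phosphodiesterase Pde5a (at least 1.26-fold) fell to a mean below background. Fzd6 was called in 6 of 22 alternatives, Pde5a in 6 of 21, Fhl1 in 12 of 21 and Lpcat2 in 15 of 22.

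The stem cell list of 27 measured factors and markers held 3 higher genes (Mecom, Meis1 and Prdm16) and 2 lower ones (Tal1 and Fhl1). Its median was 0.07, and over all genes 0.17% were higher and 0.0989% lower. Tal1, a helix-loop-helix factor of stem, erythroid and megakaryocytic cells, was at 7.45, 7.22, 7.25, 7.45 and 7.19 in wild type and at 6.08, 6.11, 5.99 and 6.71 in Mll-AF9. Mll-AF9 replicate 4 was the nearest to wild type, and Tal1 fell by 1.09 ± 0.18 (SE, adjusted p = 0.0163). It did not pass without wild type replicate 4 or 5 or without Mll-AF9 replicate 1, 2 or 3 (differences of -1.12 to -1.01). Its partners in transcription complexes were not called, with Lmo2 at 0.31, Lyl1 at 0.01, Gata2 at 0.42, Gata1 at -0.50 and Runx1 at -0.24. Cd34 (0.28), Kit (0.07), Erg (0.46), Hlf (0.33) and Prom1 (0.49) did not pass either. Tal1 was the only call among 16 erythroid and megakaryocytic transcription factors, whose median was -0.04.

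Platelet and megakaryocyte genes had 1 higher (Selp) and 1 lower (Gng11) call among 18 (0.17% and 0.0989% of all genes), with a median of -0.31. Of the 18 differences 14 were negative, beside 9795 of all 18193 genes. Gng11, a G-protein gamma subunit abundant in platelets, was at 8.26, 7.49, 7.29, 7.83 and 7.79 in wild type and at 6.21, 6.49, 6.72 and 6.47 in Mll-AF9, and fell by 1.26 ± 0.20 (SE, adjusted p = 0.0144). It did not pass without wild type replicate 4 or 5 or without Mll-AF9 replicate 1, 2 or 4. Ppbp, a platelet chemokine, had -1.07 (adjusted p = 0.14) and passed without wild type replicate 1 (-1.22, adjusted p = 0.021). Pf4 (-0.48), Itga2b (-0.63), Vwf (-0.51) and F2r (-0.73) did not pass. The summed level of the list was 10.61 to 11.39 in wild type, highest in replicate 1, and 10.30 to 11.04 in Mll-AF9, and the part of megakaryocyte-lineage cells in these differences was not tested.

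**Figure D3:**
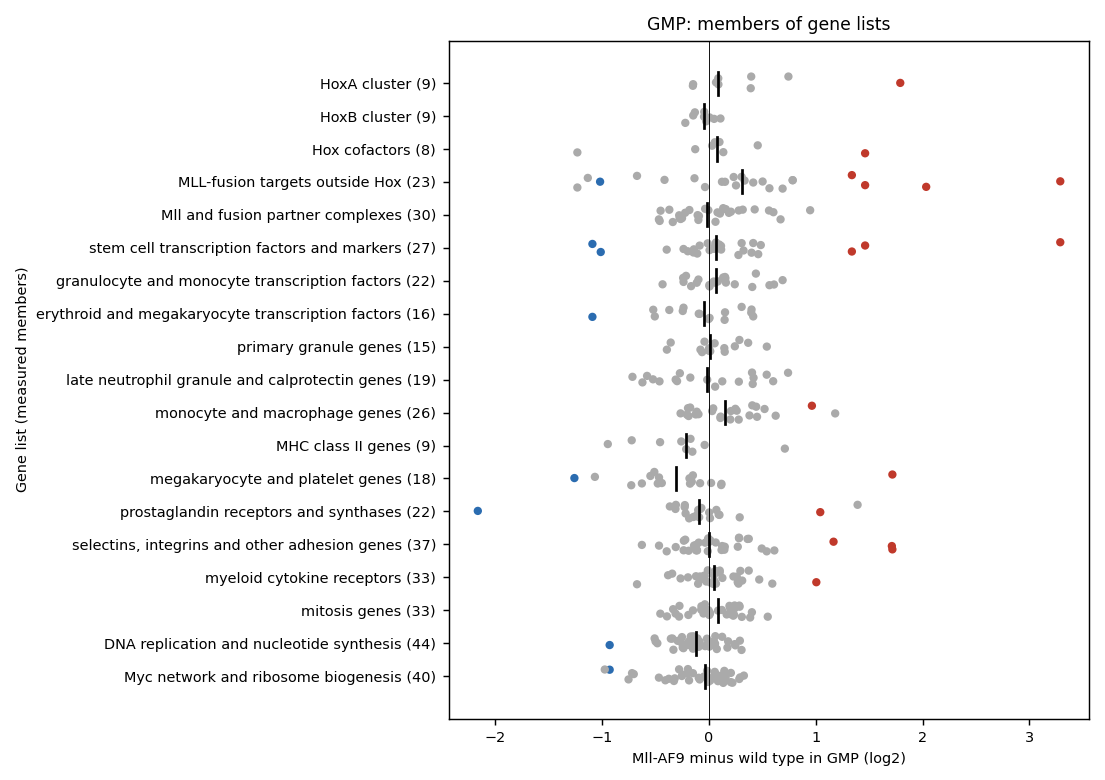
Difference between the genotypes in GMP (Mll-AF9 minus wild type, log2, x axis) for each measured member of 19 gene lists (y axis, number of members in brackets), with higher calls in red, lower calls in blue, other genes in grey and a black bar at the list's median. Medians lie between -0.31 for the platelet list and 0.31 for the MLL-fusion targets, and the called genes, a minority of each list, lie far from its median.

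The factors that direct granulocyte and monocyte fate had no call among 22 measured genes. The 2 groups overlapped for each of them, as they did for all but 4.36% of the genes tested. Cebpa was at 8.87 and 8.44, Spi1 at 6.84 and 6.98, Irf8 at 10.35 and 10.24, Gfi1 at 7.36 and 8.05, Cebpb at 7.50 and 7.28, Cebpd at 8.62 and 9.06 and Klf4 at 7.92 and 8.33 in wild type and Mll-AF9. Klf2 had 0.61, Id2 0.57, Egr2 0.24, Rara 0.16, Zeb2 0.15, Myb 0.15, Maf 0.08, Egr1 0.06, Fos 0.05, Id1 0.01, Jun 0.00, Nab2 -0.10, Irf4 -0.17, Runx1 -0.24 and Irf5 -0.24. Of 13 measured surface markers listed here for progenitor gating, as those of this sort are not given, 10 lay above background and none was called. They were Ptprc (0.53), Cd34 (0.28), Fcgr3 (0.13), Cd48 (0.07), Kit (0.07), Cd4 (0.01), Fcgr2b (-0.23), Cd3e (-0.26), Cd8a (-0.37) and Eng (-0.50). Itgam (0.54), Il7r (0.20) and Slamf1 (0.10) lay below background.

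Monocyte and macrophage genes held 1 call among 26, with a median of 0.16. Mpeg1, the macrophage pore-forming protein perforin-2, was at 9.60, 9.62, 9.10, 9.30 and 9.40 in wild type and at 10.45, 10.13, 10.15 and 10.73 in Mll-AF9, and rose by 0.96 ± 0.17 (SE, adjusted p = 0.0204). It did not pass without wild type replicate 3, 4 or 5 or without Mll-AF9 replicate 1, 3 or 4. Without wild type replicate 1 the count was 3, with F13a1, a coagulation factor subunit of monocytes (0.68, adjusted p = 0.00322), and Ly86, a partner of a Toll-like receptor relative (0.60, adjusted p = 0.0076). Higher calls over all genes grew alike when that replicate was left out, from 31 (0.17%) to 92 (0.506%). Lgals3 had 1.18 (adjusted p = 0.37), Cd14 0.52, Ctss 0.38, Csf1r -0.26 and Ccr2 0.03. The summed level of the list was 12.99 to 14.02 in wild type, highest in replicate 1, and 13.30 to 13.83 in Mll-AF9.

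Late neutrophil granule and calprotectin genes had no call among 19, with a median of -0.01. S100a8 had -0.52 and Lcn2 -0.71, and Padi4 had 0.74. Among MHC class II genes 8 of 9 differences were negative without a call, beside 9795 of all 18193 genes. H2-Aa had a difference of -0.94, H2-Ab1 -0.72 and H2-Ob 0.71. H2-Ob passed only without wild type replicate 1 (1.06, adjusted p = 0.036). The mast cell, red cell, eosinophil, dendritic, lymphoid progenitor, mature B cell and mature T and NK cell lists had no call. The mast cell protease Cpa3 had the largest difference among them, at 8.62 and 7.33 (-1.29, adjusted p = 0.28), and the summed mast cell level was 10.59 to 11.35 in wild type, highest in replicate 1, and 10.57 to 10.76 in Mll-AF9. Of 14 mature B cell genes 10, and of 20 mature T and NK cell genes 12, were at or below background in all 9 samples.

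Il17rb, a subunit of the interleukin-25 receptor, was the single call among 33 cytokine receptors. It was at 7.28, 7.40, 6.86, 7.14 and 7.24 in wild type and at 8.30, 8.22, 8.05 and 8.18 in Mll-AF9, a gap wide against the spread of either group, and rose by 1.01 ± 0.17 (SE, adjusted p = 0.0144). It did not pass (adjusted p of 0.054 to 0.079) without wild type replicate 4 or 5 or without any single Mll-AF9 replicate. The receptors for the growth factors of this lineage were not called, with Csf1r at -0.26, Csf3r at -0.19, Csf2ra at -0.07, Csf2rb at -0.38 and Il3ra at 0.26, and Flt3 had -0.67. Il18r1, a receptor for interleukin-18, had 0.47 (adjusted p = 0.61).

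Further genes that rose belong to signalling, RNA and surface functions. Chaserr, a long non-coding RNA that restrains its neighbour Chd2, was at 8.38, 8.65, 8.07, 8.35 and 8.34 in wild type and at 9.63, 10.04, 9.58 and 9.60 in Mll-AF9, and rose by 1.35 ± 0.17 (SE, adjusted p = 0.00181). The protein kinase C isoform Prkcb (1.10) and the kinase substrate Marcks (1.32) both rose. So did the splicing regulator Mbnl1 (1.12), the bromodomain protein Baz2b (1.31), the oxysterol receptor Gpr183 (1.27, at least 1.93-fold), the surface protein Ly6k (1.20, at least 1.12-fold), the winged-helix factor Stox2 (1.05), the inhibitor-kappa-B relative Nfkbiz (1.02), the glutamate receptor subunit Gria3 (0.96) and the phosphodiesterase Smpdl3a (0.90). Stox2 was called in 10 of 22 alternatives, and Nfkbiz and Smpdl3a in 11 each. The groups of Gria3 were tight, 7.58 to 7.95 in wild type and 8.66 to 8.93 in Mll-AF9. The remaining higher genes were Fam135a, below background in both groups, and 1 gene with a clone name.

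Metabolic genes held few calls. Fbp1, the fructose bisphosphatase of gluconeogenesis, was at 8.51, 6.69, 6.46, 7.77 and 7.05 in wild type and at 8.57, 9.02, 9.16 and 9.82 in Mll-AF9. It rose by 1.85 ± 0.36 (SE, adjusted p = 0.0474), the closest of the largest differences to the threshold. It did not pass when any single replicate other than wild type replicate 1 was left out, and without that replicate it was 2.15 (adjusted p = 0.000466). It was the only call among 37 genes of glycolysis, gluconeogenesis and the citrate cycle, whose median was -0.11. Cad, the multifunctional enzyme that begins pyrimidine synthesis, was at 10.16, 9.53, 9.59, 9.68 and 9.86 in wild type and at 8.83, 8.81, 8.74 and 8.96 in Mll-AF9. Cad fell by 0.93 ± 0.16 (SE, adjusted p = 0.0197), the single call among 44 DNA replication and nucleotide synthesis genes (median -0.12), and did not pass without wild type replicate 4 or 5 or without any single Mll-AF9 replicate. Shmt2, the mitochondrial serine hydroxymethyltransferase, fell by 0.73 (adjusted p = 0.0376), and the cytokine Mif by 0.67 (adjusted p = 0.0378). Shmt2 was called in only 9 and Mif in only 8 of 22 alternatives.

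None of 33 mitosis genes was called, with a median of 0.09, and Top2a (0.39) and Mki67 (0.24) did not pass. Cdk6 had 0.42, Cdkn1b 0.75, Cdk4 -0.43 and Ccnd2 -0.50. No gene was called among those of the Bcl2 family, the interferon response, the immediate-early and heat-shock response, the polycomb and DNA methylation list, the p53 response or the chemokines and their receptors.

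Without wild type replicate 1, 94 further genes passed. Those that were lower included Phgdh and Got2 of amino acid synthesis, the spermidine synthase Srm, the ribosome assembly factor Bop1, the alanyl-tRNA synthetase Aars and the cell cycle factor Mybl2. In the list of 40 Myc network and ribosome biogenesis genes the count of lower genes went from 1 (Cad) to 3 (with Bop1 at -0.74 and Srm at -0.89), and the median from -0.03 to -0.14. Over all genes the lower calls grew alike, from 18 to 51 (0.28%), and the median went from -0.02 to -0.01. Those that were higher included the lectins Klrb1f and Clec7a, the surface proteins Ms4a4b and Cd300lb, the adaptor Tyrobp, the stem cell ligand Angpt1, the lymphoid factor Ikzf2 and Zbtb16. The p53-induced Trp53inp1 had 1.11 (adjusted p = 0.10) with all samples and 1.17 (adjusted p = 0.027) without that replicate. These calls rest on 4 wild-type samples and on leaving out the sample with the largest 3'-minus-5' difference.

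Other probe sets of the called genes were compared where they lay above background. For 19 called genes there were 31 such probe sets. Of these, 26 had the sign of the chosen one and 3 were called the same way, those of Dsp, Far2 and Meis1, while none was called in the opposite direction.

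The called genes were set beside the same genotype comparison in the other populations, which share no samples with GMP. CMP values carry more decimals than the rest and may have been processed apart, and 8 of the samples titled CLP have a source name of CMP, so the titles were followed there. Of the 31 genes that rose in GMP, 12 were also called higher in CMP (0.236% of all genes were), 5 in CLP (0.203%) and 1 in HSC (0.022%). Positive differences were seen for 27, 23 and 20 of the 31, beside 50.7%, 61% and 52.4% of all genes. Of the 18 genes that fell, 2 were called lower in CMP (0.187%), 2 in CLP (0.143%) and none in HSC (0.033%), with negative differences for 17, 16 and 15 of the 18, beside 49.2%, 39% and 47.6% of all genes.

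Skida1 was the only gene called in all 4 populations, although its wild-type mean was below background in each. It was higher in Mll-AF9 by at least 2.31-fold (CMP), 6.33-fold (CLP) and 2.99-fold (HSC). Mecom, below background in wild-type CMP, was at least 12.1-fold higher there (adjusted p = 1.123e-08). It differed by 1.63 in CLP (adjusted p = 0.0114) and 1.62 in HSC (adjusted p = 0.087). Its level in wild type was 4.30 (CMP), 8.42 (CLP) and 8.77 (HSC). The mean of 7.37 in Mll-AF9 GMP therefore lay between those of wild-type CMP and wild-type CLP. Hoxa9 differed by 2.41 (CMP), 0.78 (CLP) and 0.65 (HSC), and passed in CMP only. Its wild-type level was 9.13, 11.60 and 12.17 there. Ptger3 had a difference of -2.40 (CMP), -2.47 (CLP) and -2.07 (HSC), and passed in CMP and CLP. Selp had 1.70 in CMP, 1.62 in CLP and 0.40 in HSC. Bpifc was at least 2.24-fold higher in CMP, where wild type was below background. It had differences of 2.83 in CLP and 2.62 in HSC, and did not pass in HSC.

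Hoxa10 and Il18r1, not called in GMP, were called in CMP, where they were at least 1.89-fold and 2.77-fold higher than a wild type below background. The difference between the 2 effects was not called for either gene. The effect in GMP minus that in CMP was tested for every gene in 1 limma model of all 8 groups, and no gene passed (335 had an unadjusted p below 0.05, and the lowest adjusted p was 0.088, for Tmem178). That model gives each gene 1 spread over all 8 groups, CLP and HSC included. Fewer genes had an unadjusted p below 0.05 than chance alone gives over 18193 genes. The test was conservative for this contrast, so a missing call, also for Hoxa10 and Il18r1, does not show equal effects. Without Mll-AF9 GMP replicate 2, Tmem178 passed with 2.65 (adjusted p = 0.000619). Against CLP 12 genes passed (0.066%), and against HSC 8 (0.044%).

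Tmem178 was above background in GMP only. Its wild-type level was 2.86 (CMP), 2.93 (CLP) and 2.88 (HSC), and the Mll-AF9 level there was 3.08, 3.05 and 2.81, so no genotype effect can be read in those populations. On these values the fitted GMP effect exceeded that in CLP by 2.31 (adjusted p = 0.00164) and that in HSC by 2.50 (adjusted p = 0.00926), in each of 11 alternatives. Tctex1d1, also below background in the other populations (2.54, 2.69 and 2.80 in wild type), exceeded HSC by 1.76 (adjusted p = 0.017, and in 9 of 11 alternatives) with the same limit. Far2 lay below background in CMP, CLP and HSC too, at 3.16, 3.50 and 3.07 in wild type.

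The Prdm16 difference did not have the same sign in every population. It was at least 1.17-fold higher in CMP (adjusted p = 0.00345) and had differences of -1.58 in CLP (adjusted p = 0.0246) and -0.90 in HSC (adjusted p = 0.658), and its wild-type level was 3.94, 6.78 and 7.15 there against 3.87 in GMP, below background in GMP and CMP. The fitted GMP effect exceeded that in CLP by 2.92 (adjusted p = 5.25e-05, in 11 of 11 alternatives) and that in HSC by 2.24 (adjusted p = 0.0333, in 3 of 11). Tal1 differed by 0.05 (CMP), 0.11 (CLP) and 0.42 (HSC), none of which passed. Its GMP effect was below that in HSC by -1.51 (adjusted p = 0.0333, in 5 of 11). Tmem98 had -0.62 (CMP), -0.62 (CLP) and 0.46 (HSC), none of which passed. Its GMP effect was below that in HSC by -1.95 (adjusted p = 0.0491, in 1 of 11).

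**Figure D4:**
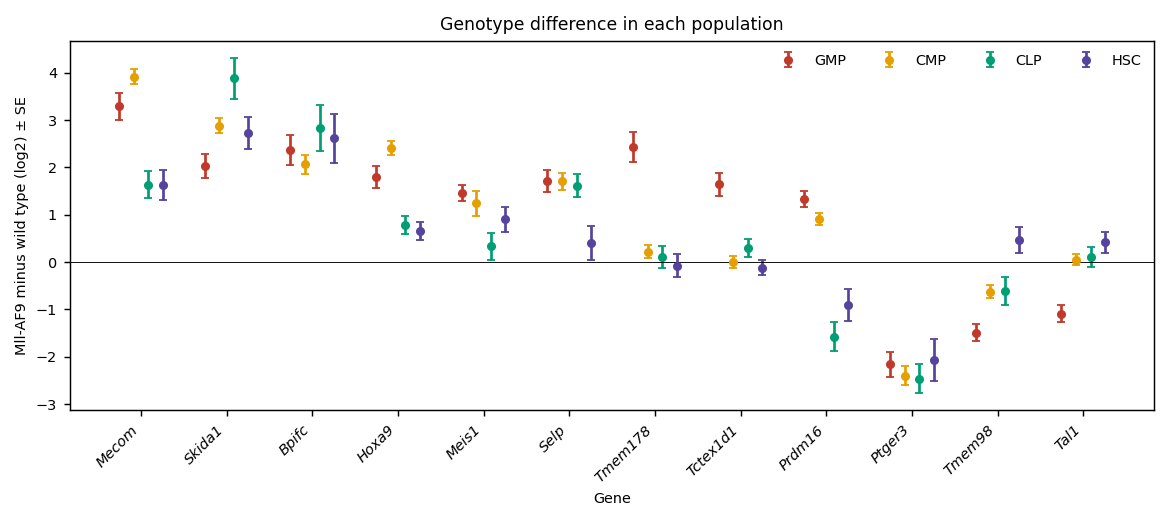
Difference between the genotypes (Mll-AF9 minus wild type, log2, y axis; points are estimates, bars 1 SE on either side) in GMP, CMP, CLP and HSC for 12 genes called in GMP (x axis). Mecom, Skida1, Bpifc, Hoxa9, Meis1, Selp and Ptger3 have the same sign in every population. Tmem178 and Tctex1d1 are near 0 outside GMP, where they lie below background. Prdm16 is positive in GMP and CMP and negative in CLP and HSC.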

How the data were processed

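RNA of sorted mouse bone marrow progenitors was measured on 51 Affymetrix arrays, and samples were grouped by title. The authors deposited a linear intensity for each probe set of an array, made with RMA per the submitters' processing notes; the sources used here give neither the version nor which arrays were normalised jointly. Intensities were taken to log2 here, and repeat runs of CMP replicates were averaged on that scale. Of 45101 probe sets, 64 were controls and 34945 had 1 gene in the platform annotation (932 had several and 9160 none); symbols were updated by gene identifier for 34741 from the GRCm38.p6 gene table. A gene was represented by its brightest probe set on average over 43 replicates (18193 genes). Background is the 95th percentile of the means of 114 sensory receptor and keratin-associated genes, and 55.7% to 57.9% of genes lay above it in a GMP replicate. Arrays have no depth, so their number limits the precision. Genotypes were compared with limma 3.58.1 in R 4.3.3 (lmFit, eBayes with an intensity trend, no covariate), after a test on simulated data. The genotype effect in GMP minus that in another population was tested in 1 limma model of 8 group means. Alternatives were another fit (replicate block, no trend, robust, array weights, all groups), probe set choice, filter, offset and scaling, covariates and leaving out each replicate. The members and gene lists were chosen with earlier results of these data known. Named are all called genes whose brighter group was above background (sample values for the 12 higher and 8 lower with the largest differences, and for some others), Cdh1 and Fam135a added after their values were seen, and per list the called members and those with the lowest p; clone names are only counted. Some members of the lists are not reported here.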

Additional observations from a re-analysis of the deposited data

Results flagged for a closer look

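In 7 of 102 groups of 4 or 5 samples, 1 sample lay far from the others of its group by Dixon's criterion, and chance gives about 1 in 20. Chaserr was at 10.04 in Mll-AF9 replicate 2, above the other 3. Mbnl1 was at 11.90 in the same sample, also above its group. Tal1 was at 6.71 in Mll-AF9 replicate 4, the sample nearest to wild type, and Pde5a at 3.42 in that replicate, the lowest of its group. Fhl1 was at 3.23 in Mll-AF9 replicate 1, below the other 3. In wild type, Prkcb was at 5.93 in replicate 1, below the other 4, and Smpdl3a at 8.92 in replicate 2, above the other 4. The groups did not overlap in any of these genes, but that held for all 49 called genes, from which these were drawn.

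The genotype effect differed between GMP and CLP for 12 genes, by the limma test of the difference itself. Among them the GMP effect minus the CLP effect was 2.92 for Prdm16 and 2.31 for Tmem178, both called in GMP. It was 4.03 for Vpreb1, a part of the pre-B cell receptor, 2.67 for the B cell adaptor Blnk, -4.58 for the T cell receptor segment Trgv4 and -3.33 for the cytotoxic protease Gzma. For these last 4 the GMP effect was 0.49, -0.09, -0.17 and 0.13, and the CLP effect was -3.55, -2.77, 4.42 and 3.46. Against HSC, the GMP effect minus the HSC effect was 2.50 for Tmem178, 2.24 for Prdm16, 1.76 for Tctex1d1, -1.51 for Tal1 and -1.95 for Tmem98. It was 2.71 for the immunoglobulin gene Ighm and 1.88 for the mitotic kinesin Kif23, whose GMP effects were 0.01 and 0.23. Tmem178 in CLP and HSC, and Tctex1d1 in HSC, lay below background in both genotypes.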

How the results depend on the processing

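The 31 higher and 18 lower genes became 18 and 2 with the replicate number as a block, although same-numbered samples did not deviate together (correlations of -0.17, -0.15, -0.11 and 0.07), so the numbers do not pair the samples. The counts were 17 and 9 in 1 model of all 8 groups, 20 and 9 with the mean of a gene's probe sets, 134 and 84 with array weights, 11 and 10 with the Y-linked covariate, and 84 and 57 against wild type replicates 4 and 5 only, an alternative chosen after seeing the data. Leaving out 1 replicate gave 16 to 92 higher and 4 to 51 lower genes, the most without wild type replicate 1. The other alternatives stayed within 1.5 times of both counts, among them the 3'-minus-5' covariate (37 and 14). Of 159 further named genes, 19 passed under some alternative. Genes whose effect differed numbered 0 to 1 against CMP, 6 to 17 against CLP and 1 to 5 against HSC when 1 GMP replicate was left out (6 against CLP without wild type replicate 1 or 4, and 1 against HSC without wild type replicate 4), and 4 against HSC without the intensity trend. The causes were not tested. The signal over background limits the 18 called genes whose dimmer group was below it.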
